A study of Mus musculus with 6 samples.

Results

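Desmosomes are spot-like junctions that rivet neighbouring epithelial cells together. Their adhesion molecules, the desmogleins and desmocollins, belong to the cadherin superfamily and bind across the gap between cells. On the inner side plakoglobin and the plakophilins, armadillo proteins, gather the cadherin tails and hold desmoplakin, a plakin that fastens the plaque to keratin filaments. Simple epithelia such as that of the gut use desmoglein 2 and desmocollin 2, whereas other desmogleins and desmocollins belong mainly to stratified epithelia. Adherens junctions, which E-cadherin (Cdh1) builds in epithelia, help desmosomes to assemble.

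The genes described here are 10 components of this junction: the cadherins Dsg2 and Dsc2, the armadillo proteins Jup, Pkp1, Pkp2, Pkp3 and Pkp4, and the plakins Dsp, Ppl and Evpl. They were taken as a named list, with all 23 probe sets that the array annotation assigns to 1 of them alone, out of 45101 probe sets in the table. All 23 probe sets and all 10 genes passed the filter on dim signals (at least 3 of 6 arrays at an intensity of 16 or more), among 12994 genes tested. Transcripts were measured on Affymetrix mouse arrays in epithelial cells of the small intestine of C57BL/6 mice aged 2 weeks, detached with EDTA and vortexing. The 3 control samples came from littermates positive for E-cadherin, labelled only as control, so their state at the floxed locus, for Vil-Cre and for the N-cadherin knock-in is not known here. The 3 samples called replacement came from Ecadflox/Ncad;Vil-Cre mice, in which the villin-driven recombinase removes E-cadherin from gut epithelium and N-cadherin (Cdh2) stands in its place. Nothing in the labels ties the samples to separate animals, and the p-values therefore cover no more than the spread among the samples. The sexes read from the arrays, given below, differ within each group. Among samples of the same sex in a group the spread may be technical.

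Control 2 and control 3 differed little (their log2 ratio had an SD of 0.115 across 5109 bright probe sets, against 0.347 to 0.564 for other pairs within a group and 0.0812 to 0.134 for hybridization controls) and were averaged to 1 replicate, leaving n = 2 control and n = 3 replacement replicates. Control 1, replacement 2 and replacement 3 read as female by Xist and Y-linked genes, and control 2, control 3 and replacement 1 as male. Control 1 stood apart in stromal signal: the summed intensity of 10 fibroblast and smooth muscle markers was 1402 there, 321 and 345 in the other controls and 506 to 576 in the replacement arrays. Cdh1 was 2.09-fold lower in replacement (log2 difference -1.06, SE 0.240, limma adjusted p = 0.0250; not called without control 1, adjusted p = 0.213, without control 2 and control 3, 0.162, without replacement 2, 0.0825, without replacement 3, 0.0714, or with no dim filter, 0.109). Both Cdh2 probe sets lay under 16 on every array. In this design 580 genes were called higher and 605 lower at a limma adjusted p under 0.05. The epithelial identity of the cells was clear in all samples, with Epcam between 3207 and 4046, Vil1 between 2768 and 3258 and Cldn7 between 2499 and 3433 intensity units.

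In the replacement epithelium 4 of the 10 desmosomal genes rose and none fell. The genes that rose were Dsc2, Pkp2, Pkp3 and Ppl, by 2.07-fold to 2.91-fold. Over all genes 4.46% were called higher and 4.66% lower. For 6 of the 10 genes every replacement array lay above every control array, as it did in 17.8% of all genes, and for none of them below, as in 18.8% of all genes. The median difference of the 10 genes was 0.92 on the log2 scale, beside -0.02 over all genes, whose quartiles were -0.36 and 0.29. At an unadjusted p under 0.05 there were 7 genes higher, against 11.4% of all genes. Pkp1 counts among the 6 and among the 7, with 2 control arrays under the floor. It passed the dim filter only with the replacement arrays, and its groups lay apart by 19.8 in replacement 1 against 17.1 in control 1. In bulk samples such as these, a change in the make-up of the cell population and a change in the RNA of each cell cannot be told apart.

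**Figure D1:**
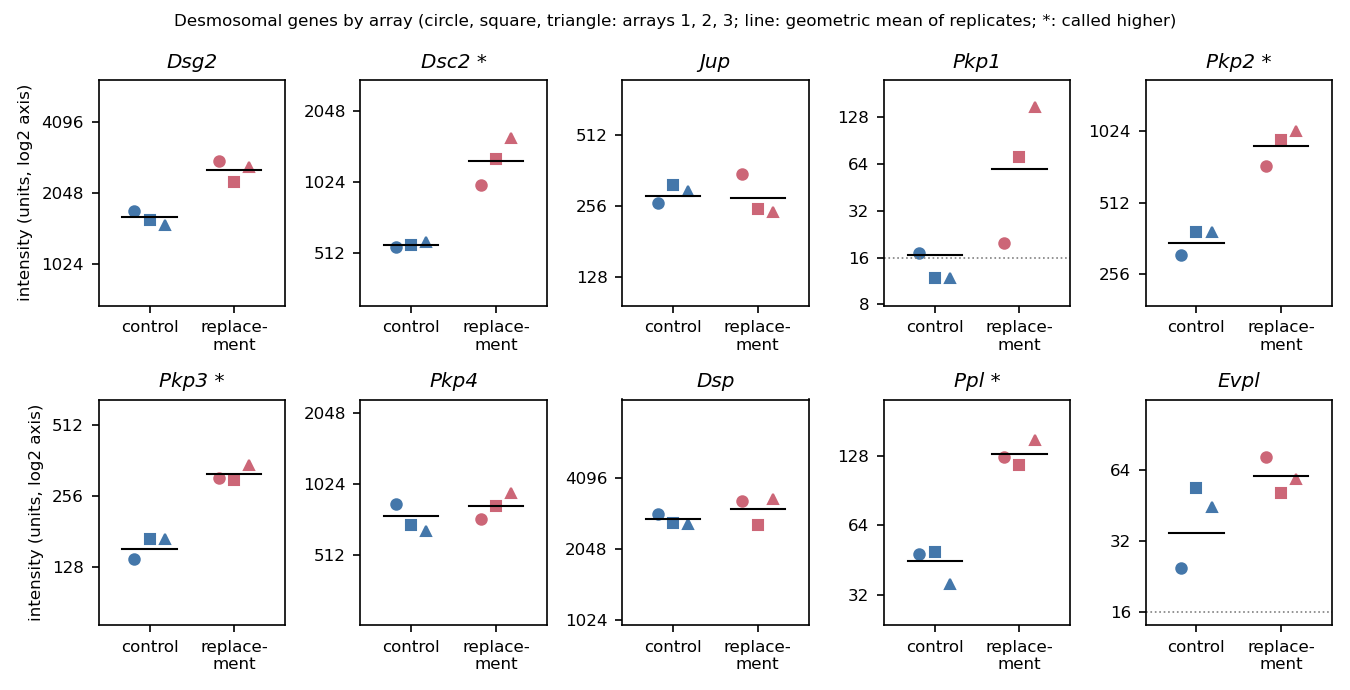
Array intensity (log2 axis, each panel with its own range) of the probe set that stands for each desmosomal gene, with circles, squares and triangles for arrays 1, 2 and 3 of a group, lines for the geometric mean of the replicates and a dotted line at the floor of 16. For Dsg2, Dsc2, Pkp1, Pkp2, Pkp3 and Ppl all replacement arrays sit above all control arrays, and for Jup, Pkp4, Dsp and Evpl the groups overlap.

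**Figure D2:**
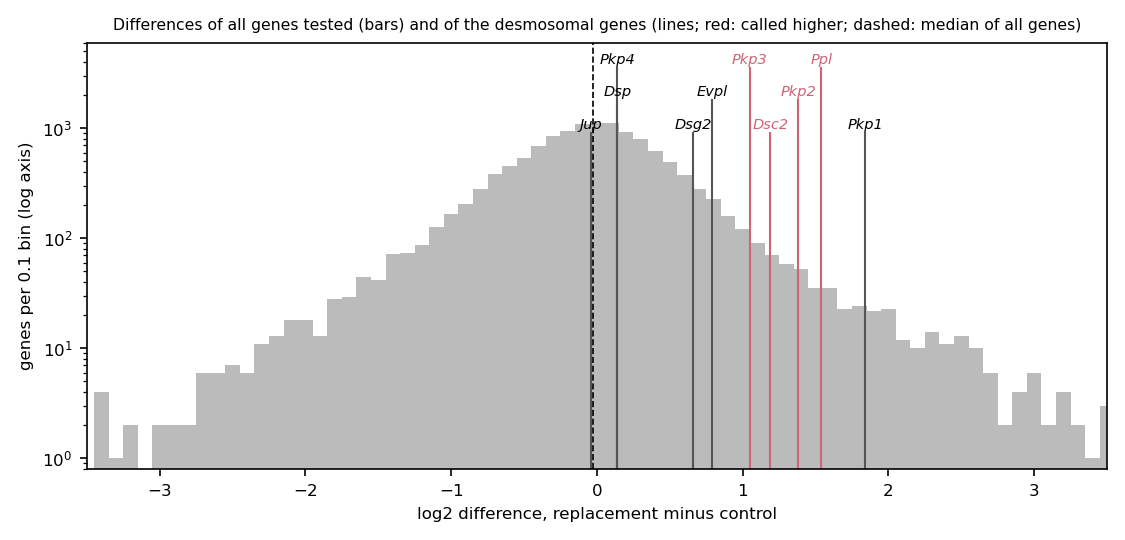
Number of genes (log axis) by log2 difference between replacement and control, with lines at the 10 desmosomal genes; genes beyond the ends of the axis are not drawn. The 4 genes called higher lie between 1.05 and 1.54, Pkp1 lies further out at 1.84 without a call, and Jup, Dsp and Pkp4 lie near the dashed median of all genes at -0.02.

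Among the cadherins, Dsc2, the desmocollin of simple epithelia, had intensities of 542, 554 and 570 in control 1, 2 and 3 and of 992, 1277 and 1569 in replacement 1, 2 and 3. The controls were nearly alike, replacement 1 was the lowest of its group, and the groups did not overlap. Dsc2 was 2.28-fold higher (log2 difference 1.19, SE 0.262, 95% interval 0.60 to 1.77, limma adjusted p = 0.0225). Its other probe set, with controls of 311, 282 and 270 and replacement arrays of 440, 692 and 925, gave 1.16 (adjusted p = 0.0824 among 22603 probe sets).

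Dsg2, the desmoglein that pairs with Dsc2 in the gut, read 1709, 1572 and 1497 in the controls and 2798, 2265 and 2641 in the replacement arrays on its brightest probe set. The groups were again apart, with replacement 2 the lowest of its group. This probe set gave 1.58-fold (log2 difference 0.66, SE 0.233, 95% interval 0.14 to 1.18) and was not called (limma adjusted p = 0.117). All 6 probe sets of Dsg2 gave differences above 0, from 0.66 on the brightest to 1.63. In the fit over all 22603 probe sets 3 of the 6 were called higher (3.22% of all probe sets were higher and 2.69% lower), and in 5 of the 6 the arrays did not overlap (18.2% of all probe sets lay apart in this direction).
The called probe sets had log2 differences of 1.06 (adjusted p = 0.0474), 1.31 (adjusted p = 0.0208) and 1.63 (adjusted p = 0.0432), from control geometric means of 1030, 378 and 121. The probe sets of differences 1.06 and 1.31 carry the suffix for probes shared between transcripts. Whether Dsg2 is called turned on the probe set, the handling of replicates and the options of the fit: with the mean of all its probe sets it was called (1.07, adjusted p = 0.0368), as with all 6 arrays as separate replicates (0.69, adjusted p = 0.0273) and with trend and robust options (0.66, adjusted p = 0.0483). Over 20 alternatives with a test its adjusted p ran from 0.0273 to 0.337.

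**Figure D3:**
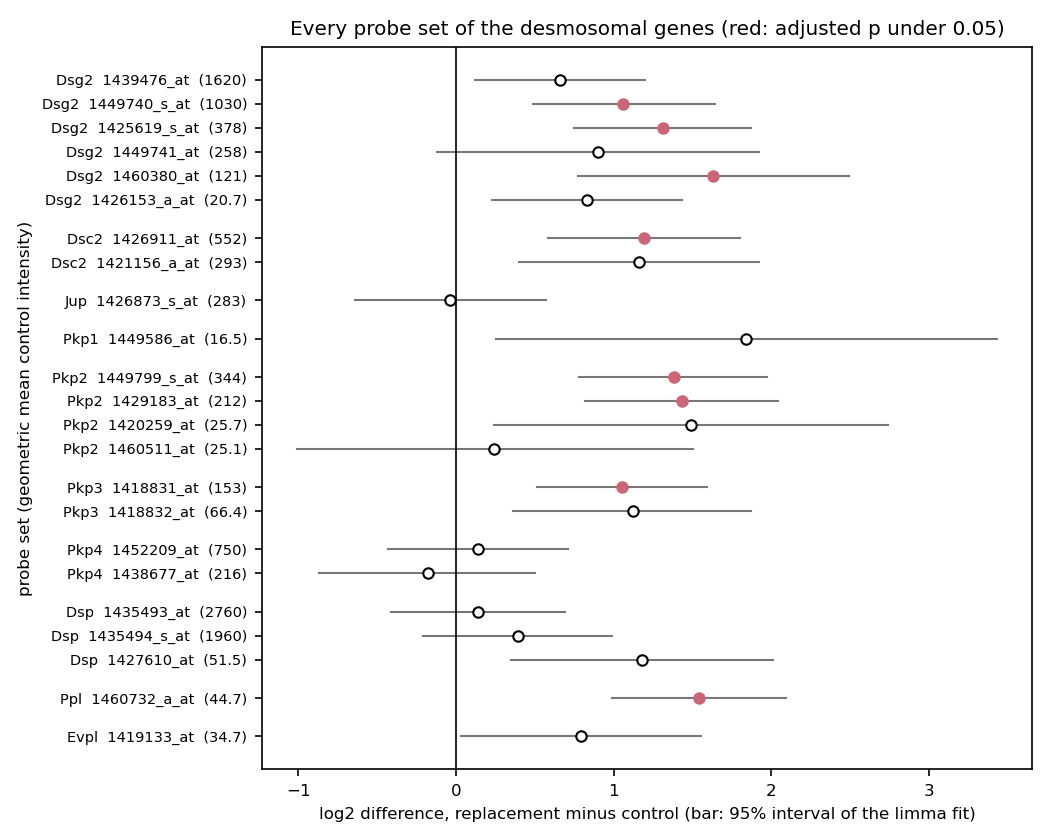
Log2 difference (horizontal axis) with its 95% interval for every probe set of the desmosomal genes, listed from brightest to dimmest within each gene with the geometric mean control intensity in brackets. Red points are the 8 probe sets called higher; the brightest probe sets of Dsp and Dsg2 give the smallest differences of their genes, and the probe sets of Dsc2 and of Pkp3 lie close together.

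Of the 5 armadillo proteins of the plaque, Pkp2 and Pkp3 were called higher. Pkp2, a plakophilin found in simple epithelia and in heart, went from 308, 384 and 383 in the controls to 730, 944 and 1031 in the replacement arrays. Replacement 1 was the lowest of its group, as for Dsc2, and stood well clear of the highest control. Pkp2 was 2.60-fold higher (log2 difference 1.38, SE 0.255, 95% interval 0.80 to 1.95, limma adjusted p = 0.0108). This probe set carries a suffix that marks probes shared between transcripts. A probe set of Pkp2 without such a suffix read 184, 238 and 253 in the controls and 472, 604 and 665 in the replacement arrays, with the same call (1.43, adjusted p = 0.0204 among probe sets). The remaining Pkp2 probe sets were dim, with differences of 1.49 (adjusted p = 0.159) and 0.24 (adjusted p = 0.846).

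Pkp3, a plakophilin of most epithelia, had 138, 169 and 168 in the controls and 306, 300 and 345 in the replacement arrays. Both groups were tight and did not overlap. Pkp3 was 2.07-fold higher (log2 difference 1.05, SE 0.234, 95% interval 0.53 to 1.57, limma adjusted p = 0.0236), and its dimmer probe set gave 1.12 (adjusted p = 0.0910 among probe sets).

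Pkp1, the plakophilin of stratified epithelia, lay near the floor in the controls, at 17.1 in control 1 and 11.8 in each of the other control arrays, and read 19.8, 70.9 and 147 in the replacement arrays. Replacement 1 was thus close to control 1, while replacement 2 and replacement 3 were higher. With the control arrays under 16 set to the floor, the difference was at least 1.84 (SE 0.654, 3.58-fold or more) and was not called (limma adjusted p = 0.119). Without replacement 1 it was at least 2.63 (adjusted p = 0.00630). Within the male samples, where replacement 1 is the only replacement array and both control arrays are under the floor, it was at least 0.31, a value that the floor sets. It was called in 2 of 19 alternatives with a test, the other being the replicate block over all 6 arrays (1.85, adjusted p = 0.0278).

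Pkp4, a relative of the p120 catenin that is found at adherens junctions as well as desmosomes, read 843, 690 and 646 in the controls and 732, 824 and 939 in the replacement arrays. These groups overlapped, and the difference was 0.14 (SE 0.244, 95% interval -0.41 to 0.69, limma adjusted p = 0.784). Its other probe set gave -0.18. Jup, or plakoglobin, which joins both desmosomes and adherens junctions, read 263, 314 and 296 in the controls and 350, 249 and 242 in the replacement arrays. Replacement 1 held the highest value of all 6 arrays and the other replacement arrays the lowest. The difference of Jup was -0.04 (SE 0.258, 95% interval -0.61 to 0.54, limma adjusted p = 0.953). The interval of Jup leaves out a rise of the size seen for Dsc2, Pkp2, Pkp3 or Ppl, and its only probe set carries the suffix for shared probes.

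Among the plakins, Dsp, or desmoplakin, was bright: 2898, 2648 and 2619 in the controls and 3267, 2592 and 3325 in the replacement arrays. The lowest of these values came from replacement 2, and the groups overlapped. The difference was 0.14 (SE 0.239, 95% interval -0.40 to 0.67, limma adjusted p = 0.782). A second bright probe set of Dsp gave 0.39 (adjusted p = 0.440). The dimmest, with 66.8, 44.1 and 35.7 in the controls and 78.4, 128 and 159 in the replacement arrays, gave 1.18 with no overlap of the groups but no call (adjusted p = 0.103). The mean over the Dsp probe sets gave 0.57. The probe sets of Dsp thus did not give 1 answer on its size.

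Ppl, or periplakin, which links the plaque and the cell cortex to intermediate filaments, read 47.8, 49.1 and 35.5 in the controls and 126, 117 and 149 in the replacement arrays. Every replacement array stood well clear of every control array. Ppl was 2.91-fold higher (log2 difference 1.54, SE 0.237, 95% interval 1.01 to 2.07, limma adjusted p = 0.00431). This was the largest difference of the called genes as reported, but its interval overlapped those of Pkp2, Dsc2 and Pkp3. Pkp2 exceeded Ppl with log2(intensity + 16) (1.34 against 1.27), within females (1.68 against 1.47) and without control 2 and control 3 (1.54 against 1.44). Ppl was called in 16 of 20 alternatives with a test, and its adjusted p ran from 0.00116 to 0.188. Evpl, or envoplakin, the partner with which periplakin forms heterodimers, read 24.7, 53.6 and 44.4 in the controls and 72.5, 51.3 and 58.4 in the replacement arrays. Control 1 was far below the other controls, and control 2 exceeded replacement 2. The difference of Evpl was 0.79 (SE 0.320, 95% interval 0.07 to 1.51) and was not called (limma adjusted p = 0.161); it was 0.30 without control 1 and 1.28 without control 2 and control 3.

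Whether desmosomal genes changed by different amounts was asked within each array, from the log2 ratio of their signals in 4 pairs. These pairs were chosen with earlier results of these data known. Dsp and Jup, a plakin and an armadillo protein, are of different families. The ratio of Pkp2 to Pkp3 was 1.15 to 1.19 in the controls and 1.26, 1.66 and 1.58 in the replacement arrays, so that the arrays did not overlap, with a mean shift of 0.33 (exact permutation p = 0.2, two-sided, n = 2 and 3, adjusted p = 0.533 over 4 pairs). The ratio of Ppl to Evpl shifted by 0.75 (exact permutation p = 0.400), that of Dsc2 to Dsg2 by 0.53 (exact permutation p = 0.400) and that of Dsp to Jup by 0.17 (exact permutation p = 0.600), all with overlapping arrays. With this number of replicates the smallest possible p is 0.1, so no difference between the genes of a pair could pass. With the mean of all probe sets the shift of Dsc2 against Dsg2 fell to 0.11 and that of Pkp2 against Pkp3 to 0.05.

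The calls depended on few replicates. Without control 1 none of the 10 genes was called (8 of all genes were higher), and likewise without control 2 and control 3 together (3 of all genes higher). These fits hold 1 control replicate, taken to have the spread of the replacement group. Without replacement 3 only Ppl was called, and without replacement 2 only Ppl and Pkp2. With no filter on dim probe sets none was called either (70 of 18193 genes were higher). Sizes moved less: across every array left out, Ppl stayed between 1.43 and 1.66, Pkp2 between 1.22 and 1.54, Dsc2 between 1.03 and 1.36 and Pkp3 between 0.91 and 1.19. Within the female samples (control 1 against replacement 2 and 3) Dsc2 differed by 1.38, Pkp2 by 1.68, Pkp3 by 1.22 and Ppl by 1.47, and within the males (control 2 and 3 against replacement 1) by 0.82, 0.93, 0.86 and 1.59. With sex as a block these 4 genes remained called. The change did not differ between the sexes by a test for any of the 10 genes, with limma adjusted p from 0.586 for Pkp2 to 0.931 for Pkp4. That test has 1 residual degree of freedom per gene.

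**Figure D4:**
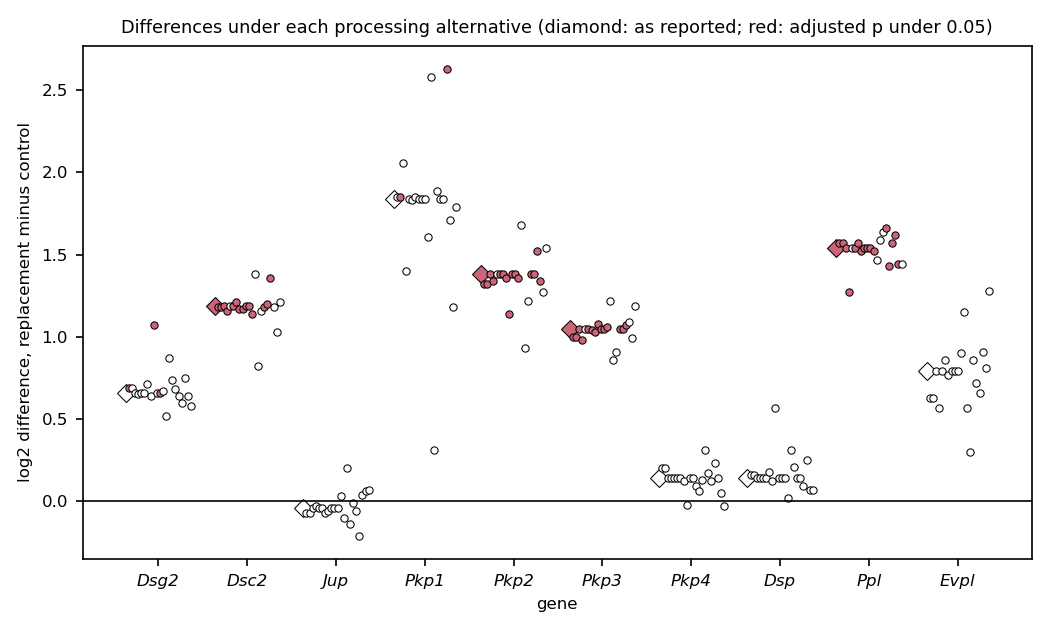
Log2 difference of each desmosomal gene as reported (diamond) and under each processing alternative (circles), red where the adjusted p was under 0.05 and white otherwise. Dsc2, Pkp2, Pkp3 and Ppl stay at 0.82 or above under every alternative whether or not they are called, Pkp1, with control arrays under the floor, ranges from 0.31 to 2.63, and Jup lies on both sides of 0.

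The keratins of simple epithelia, which desmosomes anchor, were called higher for 3 of 5 genes and lower for none. Krt7 went from 261, 412 and 423 in the controls to 2046, 2293 and 1834 (log2 difference 2.63, SE 0.272, limma adjusted p = 6.42e-04). Krt19 went from 1491, 1415 and 1543 to 3965, 3160 and 3630 (1.27, SE 0.232, limma adjusted p = 0.0103). Krt20, a keratin of differentiated gut cells, went from 1882, 925 and 946 to 3798, 3167 and 3231 (1.35, SE 0.312, limma adjusted p = 0.0274), and was 1.86 without control 1, 0.85 without control 2 and control 3 and 0.77 within females. Krt18 (0.76, limma adjusted p = 0.0816) and Krt8 (0.40, limma adjusted p = 0.352), the obligate pair of simple epithelia, were not called, although their arrays did not overlap.

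Of 9 further desmosomal genes, 3 have no probe set named here (Dsg1c, Dsg3 and Dsg4), 3 were too dim to test (Dsg1a, Dsg1b and Dsc1), and none of the other 3 was called. Of the cadherins of stratified epithelia only Dsc3 was thus tested, and it read 15.9 to 24.2 over the 6 arrays, near the floor. Perp, a membrane protein needed for desmosomes, read 1502, 2008 and 2075 in the controls and 1685, 1945 and 1464 in the replacement arrays (log2 difference -0.05, 95% interval -0.63 to 0.52). Pof1b, an actin-binding protein found at desmosomes, read 321, 342 and 347 in the controls and 368, 755 and 822 in the replacement arrays (0.88, SE 0.347, limma adjusted p = 0.153). Its replacement 1 lay close to the controls, as for Pkp1.

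Of 4 plakins outside the desmosome list 2 were called lower and none higher. Dst, or dystonin, a plakin of hemidesmosomes, fell from 660, 641 and 557 to 282, 189 and 210 (log2 difference -1.49, SE 0.256, limma adjusted p = 0.00757), with no overlap and -1.25 on its other kept probe set (adjusted p = 0.0616 among probe sets). Eppk1, or epiplakin, a keratin-binding plakin, fell from 763, 995 and 922 to 472, 308 and 380 (-1.17, SE 0.265, limma adjusted p = 0.0258). Plec, or plectin, another plakin of hemidesmosomes (0.20, and -0.42 on its other probe set), and Macf1, a cytoskeletal linker (0.07), were not called. The plakin family therefore held Ppl higher and Dst and Eppk1 lower in the same arrays.

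None of 4 armadillo proteins outside the desmosome list was called: Ctnnb1 (0.11), Ctnnd1 (-0.11), Ctnnd2 (-0.08) and Arvcf (0.47). Arvcf was dim, and its other probe sets gave the opposite sign, -0.47 or lower with 1 replacement array under the floor, and -0.85 or lower with every replacement array under the floor and below every control array (adjusted p = 0.0760 among probe sets). Among 9 genes linked to the cornified envelope, a structure of squamous cells in which periplakin and envoplakin take part, 6 were tested, 1 was called higher and 1 lower. Sprr1a, a small proline-rich envelope protein, rose from 79.8, 101 and 91.7 to 292, 186 and 203 (1.34, SE 0.270, limma adjusted p = 0.0153). Kazn, or kazrin, which binds periplakin, fell from 117, 109 and 119 to 21.9, 56.6 and 54.0 (-1.51, SE 0.392, limma adjusted p = 0.0433). Its other probe sets gave -0.20 and, where all replacement arrays were under the floor, -0.68 or lower. The call of Kazn held in 9 of 20 alternatives with a test.

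Without control 1, and without control 2 and control 3 together, none of these 7 related genes kept its call. Without replacement 3 Krt7 alone did (Krt19 1.25, adjusted p = 0.0594; Dst -1.45, adjusted p = 0.0557; Sprr1a 1.41, adjusted p = 0.0684; Eppk1 -1.17, adjusted p = 0.107; Kazn -1.72, adjusted p = 0.102; Krt20 1.39, adjusted p = 0.111). Krt20 also lost it with replacement 1 left out (1.27, adjusted p = 0.0546) or replacement 2 left out (1.40, adjusted p = 0.0781), Eppk1 without replacement 2 (-1.01, adjusted p = 0.0935), and Kazn with replacement 2 left out (-1.75, adjusted p = 0.0597) or control 3 left out (-1.48, adjusted p = 0.0511).

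**Figure D5:**
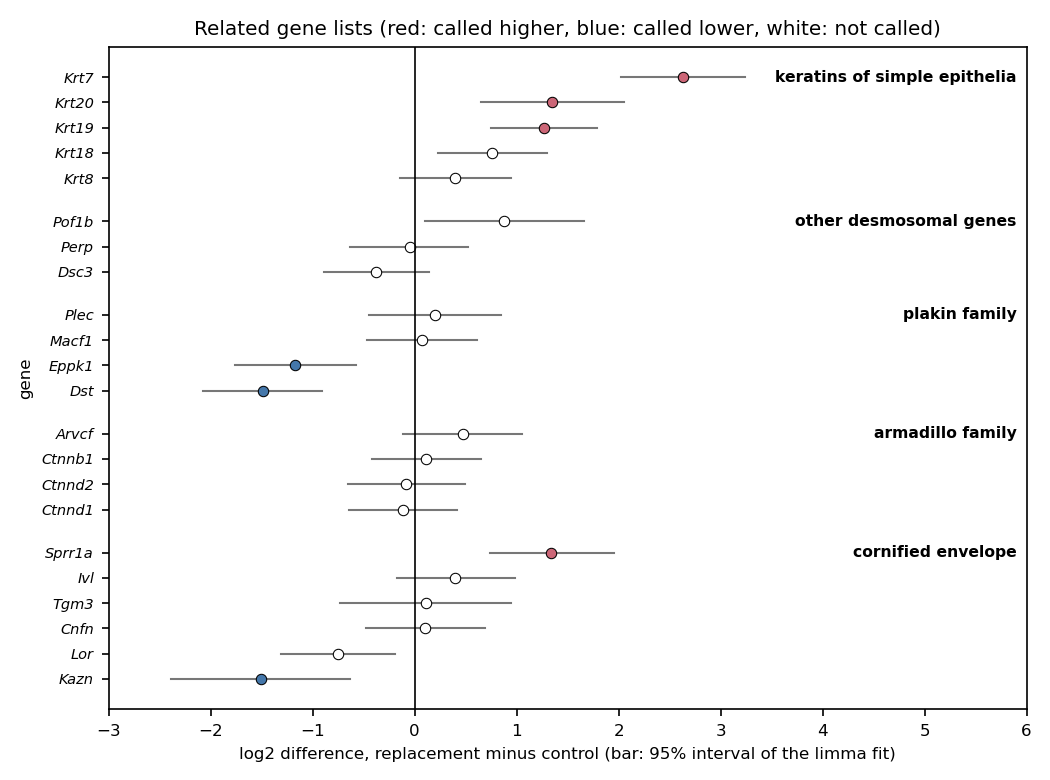
Log2 difference with its 95% interval for tested genes of 5 lists related to the desmosome. Krt7, Krt20, Krt19 and Sprr1a (red) lie above 0 with a call, and Eppk1, Dst and Kazn (blue) below 0 with a call; the armadillo genes lie between -0.11 and 0.47.

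Markers of other cells that carry desmosomal proteins were read beside these values. Of 9 markers of stratified squamous epithelium 5 were tested and none was called. Their summed intensity was 167 to 212 in the controls and 179 to 206 in the replacement arrays, and Trp63, Krt15, Krt13 and Krt1 were too dim to test. Krt6a differed by 0.88 (limma adjusted p = 0.0944) and Krt10 by -0.68 (limma adjusted p = 0.1), each with no overlap of the arrays. Krt14 differed by 0.34, Krt4 by -0.13 and Krt5 by -0.31, all with overlapping arrays. A dimmer probe set of Krt6a read 19.3, 6.2 and 8.4 in the controls and 47.8, 64.7 and 58.0 in the replacement arrays. With 2 control arrays set to the floor, its difference was at least 1.68, called in the limma fit over probe sets (adjusted p = 0.00866). This probe set passed the dim filter only with the replacement arrays, and its call rests in part on floored values. Of 8 gastric markers 3 were tested and none was called, with sums of 281 to 335 in the controls and 334 to 412 in the replacement arrays. In the mesothelial list 3 of 5 genes were tested and 2 rose, Msln by 2.09 (SE 0.350, limma adjusted p = 0.00673) and Upk1b by 2.03 (SE 0.279, limma adjusted p = 0.00241). Upk3b did not rise (0.02, limma adjusted p = 0.983) and was highest in control 1, at 44.5. The sum of the list was 79.1 to 137 in the controls and 225 to 338 in the replacement arrays. Both calls were lost when control 1 was left out (Msln adjusted p = 0.217, Upk1b adjusted p = 0.0644) or the averaged pair of control 2 and 3 was (Msln adjusted p = 0.2, Upk1b adjusted p = 0.0943), and that of Msln also without replacement 3 (adjusted p = 0.0596). The defining mesothelial marker Wt1 was too dim to test, as was Lrrn4. The part of these cells in the rise of Dsc2, Pkp2, Pkp3 and Ppl was not tested.

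None of the tested markers of fibroblasts and smooth muscle (7 of 10), endothelium (5 of 7), leukocytes (4 of 7) or the intestinal epithelium (7 of 7) was called. The epithelial markers summed to 16360 to 17860 in the controls and 19060 to 22970 in the replacement arrays. This sum includes Krt8 (0.40) and Krt18 (0.76), given above among the keratins, whose arrays did not overlap, as did those of Elf3 (0.82) not. For Epcam (0.18), Vil1 (0.03), Cldn7 (0.09) and Cdx2 (0.20) the arrays overlapped. Summed endothelial markers were 107 to 303 in the controls and 164 to 209 in the replacement arrays, and leukocyte markers 235 to 596 and 304 to 429, each with control 1 highest.

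Over the 6 arrays the genes whose log2 signal ran most like that of Ppl among the 12993 other genes were Fut4-ps1 (Pearson r 0.9977), Ptgfrn (0.997), Pomgnt1 (0.9951), Utp20 (0.9947) and Mal (0.994). Among the other desmosomal genes the likeness to Ppl was highest for Dsg2 (r = 0.97) and for Dsc2 and Pkp3 (0.95 each), and lowest for Jup (-0.22). These correlations are descriptions over 6 arrays that share the contrast between the groups.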

How the data were processed

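Each of 3 control and 3 replacement samples, grouped from the labels, was read on 1 Affymetrix array. The table that the authors deposited holds intensities on a linear scale, already scaled to a mean of 100 per array once the lowest and the highest 2% are trimmed. GCRMA and limma are named in the submitters' processing notes, but how these intensities were summarized from the probes is not stated in the sources used here. No read depth exists for arrays, and their number limits the precision.

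Intensities were floored at 16 and log2 was taken. Probe sets that reached 16 on 3 or more arrays were kept. Gene names came from the platform annotation, updated by Entrez identifier to GRCm38.p6. The probe set with the highest mean stood for its gene. limma 3.58.1 in R 4.3.3 (lmFit, eBayes, Benjamini-Hochberg over all 12994 genes, threshold 0.05) gave differences as replacement minus control, with moderated SEs. A second fit used all 22603 probe sets with 1 gene. On simulated data with known changes, the fit was checked for the median error of its differences and for false calls. No minimum was set for the share of changes called. Exact permutation tests used scipy 1.17.1.

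Named genes were the 10 members with all probe sets, called genes of the related lists, Cdh1 and Cdh2, marker lists as counts, and the 5 genes most like the called member with the largest difference. Members, lists and pairs were chosen with earlier results of these data known, and genes named beyond these rules were chosen after their values were seen. Replicate numbers did not pair the samples (correlations of deviations -0.02, 0.00 and -0.05).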

Additional observations from a re-analysis of the deposited data

Results flagged for a closer look

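Jup was singled out because the sexes moved in opposite directions: both female replacement arrays lay below the female control (log2 difference -0.10 within females), and the male replacement array lay above both male controls (0.20 within males). The test of this difference between the sexes gave -0.30 (limma adjusted p = 0.687). A dim Pkp2 probe set did the same, at -0.83 within females and 1.82 within males. For this probe set the difference between the sexes was not tested, and the other 3 Pkp2 probe sets did not show it.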

How the results depend on the processing

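The direction of Dsc2, Pkp2, Pkp3, Ppl, Dsg2, Pkp1, Dsp and Evpl was the same under every alternative run. Jup changed sign with sex as a block (0.03), without replacement 2 (0.04), without replacement 3 (0.06) and without control 2 and control 3 (0.07), with -0.21 to 0.07 over the arrays left out, and Pkp4 with the mean of all kept probe sets (-0.02) and without control 2 and control 3 (-0.03). With no filter on dim probe sets 0 of the 10 genes, 0 of their probe sets and 0 related genes were called, and 70 genes were higher and 92 lower over all. Within females 0 of the 10, 0 related and 0 of all genes were called by limma in either direction, the median of the 10 genes was 1.18 and the shift of Ppl against Evpl 0.32. Within males, where no test is possible, the median was 0.70 and the shifts were 0.07 for Pkp2 against Pkp3 and -0.05 for Dsc2 against Dsg2. With the mean of all kept probe sets the median was 1.07 and the shifts were 0.61 for Dsp against Jup, 0.11 for Dsc2 against Dsg2 and 0.05 for Pkp2 against Pkp3, and with every kept probe set the median was 1.06. A floor at 1 gave 348 genes lower, 4 related genes and 4 probe sets of the 10 genes called, and leaving out probe sets marked for cross-hybridization left 4. All 6 arrays as separate replicates gave 1118 genes higher and 1234 lower and 13 probe sets, against 8 as reported. The replicate block over all 6 arrays gave 994 higher and 1108 lower, 14 probe sets and 5 of the 10 genes; the replicate numbers are not shown to pair the samples, and no control array correlated best with the replacement array of its own number. The cause of these changes was not tested.

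With arrays left out in turn, 0 to 5 of the 10 genes, 0 to 12 of their probe sets and 0 to 8 related genes were called, and over all 3 to 827 genes higher and 1 to 833 lower. The median of the 10 genes was 0.82 to 1.20, and the shift was 0.16 to 1.34 for Ppl against Evpl (0.63 to 1.34 with single arrays left out), 0.25 to 0.45 for Pkp2 against Pkp3, 0.39 to 0.76 for Dsc2 against Dsg2 and 0.00 to 0.35 for Dsp against Jup. Probe sets near the floor, those of Pkp1, Evpl, Ppl and the dimmest of Dsg2, Dsp and Pkp2, have the least room above background.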
